A study of Mus musculus with 5 samples.

Results

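The cytosolic ribosomal protein genes comprised 85 protein-coding genes of the GENCODE annotation of the mouse genome build mm9, out of 22380 protein-coding genes in all. They were chosen by symbol: *Rpl* or *Rps* followed by a digit, plus *Rplp0*, *Rplp1*, *Rplp2* and *Rpsa*, without the *Rps6k* kinases and without pseudogenes. Of them, 51 encode proteins of the large subunit or their paralogs and 33 proteins of the small subunit or their paralogs, while *Rps19bp1* carries the prefix but encodes a partner of RPS19 and not a ribosomal protein. *Fau* and *Gnb2l1* encode ribosomal proteins under other symbols and were described separately.

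ChIP-seq was done on primary keratinocytes from newborn *Krt14-Cre;Sox11fl/fl;Sox4fl/fl* (dcKO) mice. The labels give a mixed 129SvEx:C57BL/6 background, and the methods of the study give it for the floxed parents, which were crossed to a *Krt14-Cre* line on FVB/N. Cre is driven there by the *Krt14* promoter of basal epidermal cells. All cells therefore shared the loss of both factors, and each arm received a lentivirus (pINDUCER21) with a doxycycline-inducible, FLAG-tagged *Sox11* or *Sox4* that was recovered with an antibody against FLAG. There were 2 replicates per factor, pooled by the authors in 1 list of peaks each, and 1 control library, titled as input but with IgG named as its antibody, for which no list was used here. The SOX11-FLAG list held 21270 peaks and the SOX4-FLAG list 2669, each given by position alone. The depth behind a peak is unknown, no spread between replicates can be given, and neither the deletion nor the keratinocyte identity of the cells can be checked from such lists. Both factors were expressed from a virus, so the peaks are those of tagged proteins at induced levels. Intervals beside percentages are 95% Wilson intervals, which cover counting error over genes or peaks and not replicate error. No test was run on the differences.

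Ribosomal proteins are made in nearly every cell and assemble with ribosomal RNA into the large and small subunits, which form the ribosome. Their genes are transcribed at high rates from short, CpG-rich promoters, usually without a TATA box, and transcription starts within a run of pyrimidines that becomes the terminal oligopyrimidine tract by which mTOR signalling controls translation of the mRNA. SOX4 and SOX11 are closely related SOX transcription factors of the SOXC group, which bind the minor groove of DNA through an HMG box at sequences built around CATTGT or CTTTGT.

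The sequences that carry the account of SOX4 sharing are the SOX11 peaks in front of *Rps19*, *Rpl10* and *Rps15*, all overlapped by a SOX4 peak. They are printed as far as they hold no annotated exon, from mm9, 5′ to 3′ on the strand of the gene, with matches to the SOX motif in capitals. The motif was the 10-base form with the CATTGT or CTTTGT core and up to 1 mismatch, on either strand, so that a match on the opposite strand appears as its complement. The *Rps26* peak, which had a SOX match but no SOX4 peak, is added for comparison.
Rps19, chr7:25669032-25669289, plus strand: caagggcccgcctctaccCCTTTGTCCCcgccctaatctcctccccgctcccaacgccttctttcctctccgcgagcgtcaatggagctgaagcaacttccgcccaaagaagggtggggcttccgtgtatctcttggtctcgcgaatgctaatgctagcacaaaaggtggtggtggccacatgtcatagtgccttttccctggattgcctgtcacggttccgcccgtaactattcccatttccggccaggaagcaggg
Rpl10, chrX:71515601-71515858, plus strand: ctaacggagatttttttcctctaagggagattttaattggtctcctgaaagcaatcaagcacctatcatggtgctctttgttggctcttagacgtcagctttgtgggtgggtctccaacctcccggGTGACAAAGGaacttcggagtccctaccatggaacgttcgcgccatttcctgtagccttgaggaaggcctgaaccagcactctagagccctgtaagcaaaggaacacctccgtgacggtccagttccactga
Rps15, chr10:79754937-79755175, plus strand: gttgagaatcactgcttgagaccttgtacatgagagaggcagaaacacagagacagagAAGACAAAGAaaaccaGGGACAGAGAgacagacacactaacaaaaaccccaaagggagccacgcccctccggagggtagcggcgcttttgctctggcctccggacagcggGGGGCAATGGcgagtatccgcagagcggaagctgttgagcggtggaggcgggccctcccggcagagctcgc
Rps26, chr10:128063760-128064017, minus strand: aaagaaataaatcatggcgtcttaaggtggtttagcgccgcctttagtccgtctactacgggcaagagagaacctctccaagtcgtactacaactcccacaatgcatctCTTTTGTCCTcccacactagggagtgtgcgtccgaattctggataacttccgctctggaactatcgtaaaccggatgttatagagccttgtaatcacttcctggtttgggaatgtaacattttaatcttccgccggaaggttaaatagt

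The matches near the starts of 4 further genes are given in windows of 30 bases, with the 10-base match in capitals on the strand where it reads. *Rps9* and *Rpl7a* are shown because the match lay close to the centre of an early SOX11 peak, *Rpl30* and *Rps7* because their match lay in the SOX4 peak and outside the SOX11 peak.
Rps9, chr7:3655631-3655660, plus strand: gccttgtctcTCTTTGTCTCgggcctgagt
Rpl7a, chr2:26766051-26766080, minus strand: gcgtgcgggtGCTTTGTTCCctcgccgtaa
Rpl30, chr15:34373162-34373191, plus strand: cggttctgggCGTTTGTTCTgctgcagcgg
Rps7, chr12:29321011-29321040, minus strand: ctgctttcttTCTTTTTCCTagggccgtcc

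SOX11 peaks lay near most ribosomal protein genes. A peak centre was within 10 kb of an annotated transcription start for 54 of 85 genes, 63.5% (interval 52.9 to 73.0%), where the share over all protein-coding genes was 42.8%. With the first 2669 SOX11 peaks of the list alone, the count was 6 genes, 7.06%, and the share over all genes 7.35%. In the promoter, taken as 1 kb upstream to 100 bp downstream of a start, 43 genes held a SOX11 peak, 50.6% (interval 40.2 to 61.0%), against 23.1% of all protein-coding genes. SOX4 peaks were few. They lay within 10 kb of 7 genes, 8.24% (interval 4.05 to 16.0%), beside 7.31% of all genes, and in the promoter of 6, 7.06% (interval 3.28 to 14.6%), beside 2.81%. Every one of the 7 genes also had a SOX11 peak.

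Most of these genes had a single SOX11 peak. There were 43 genes with 1 peak within 10 kb, 10 with 2 and 1, *Rpl11*, with 3, and the other 31 had none. No gene had more than 1 SOX11 peak in its promoter, and no peak lay within 10 kb of more than 1 member. The 66 SOX11 peaks comprised 43 in promoters and 23 elsewhere. The nearest protein-coding start belonged to the member for 48 of the 66 and for 40 of the 43 promoter peaks. The 3 exceptions were at *Rpl7a*, where the start of *Med22* was 25 bp from the peak centre, at *Rps25*, with *Trappc4* at 59 bp, and at *Rpl12*, with *Lrsam1* at 2 bp. For these, the peak cannot be assigned to one gene of the pair.

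At the limit of 10 kb, the members just inside were reached by more distant second peaks, at −9749 bp for *Rplp2*, whose protein is part of the ribosomal stalk, and at 9611 bp for *Rpl7l1*. Negative distances are upstream. Just outside lay *Rps3a*, with its nearest SOX11 peak at 10354 bp, and *Rps2*, at −10481 bp. Among the 31 genes without a peak the median distance to the nearest SOX11 peak was 22.2 kb, and 16 of them had one within 25 kb.

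**Figure D1:**
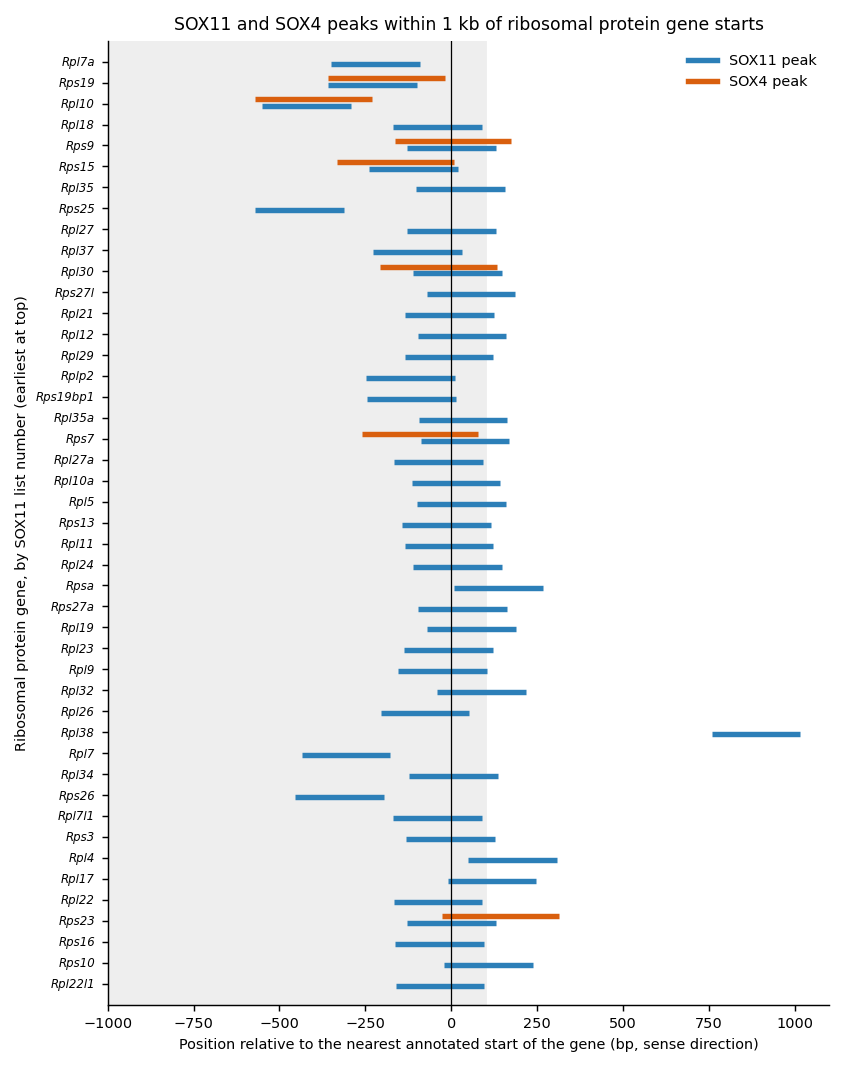
SOX11 peaks (blue bars) and SOX4 peaks (orange bars) within 1 kb of the nearest annotated start of a ribosomal protein gene, in bp along the direction of transcription; each row is a gene (some genes are not shown), ordered by its SOX11 list number, bars have the usual peak widths of 258 and 340 bp, and the grey area is the promoter. Most blue bars cross that start, and the 7 orange bars each overlap a blue one.

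The promoter peaks lay close to an annotated transcription start. Their centres were within 50 bp of an annotated start for 28 of 43 genes, 65.1%, whereas this held for 41.9% of the 4904 SOX11 peaks in promoters of other genes. These shares are to the nearest of several annotated starts, of which the genes with a peak had a median of 6. Measured from the 5′ end of the gene only, an alternative chosen after seeing the data, 17 of the 43 centres were within 50 bp, 39.5% (interval 26.4 to 54.4%), and 28.1% of the others. With the nearest annotated start, within 100 bp the shares were 76.7% and 64.5%, and within 200 bp 86.0% and 79.5%. The median position was −8 bp for ribosomal protein genes and −48 bp for other genes, and the median distance in either direction was 35 and 66 bp. Centres lay upstream of the start in 60.5% of the ribosomal protein peaks and in 72.8% of the others. The centres at *Rps9*, *Rps23* and *Rpl27* were 1 bp from the start, and those at *Rps25*, *Rpl10*, *Rps26* and *Rpl7* lay at −441, −422, −326 and −306 bp.

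**Figure D2:**
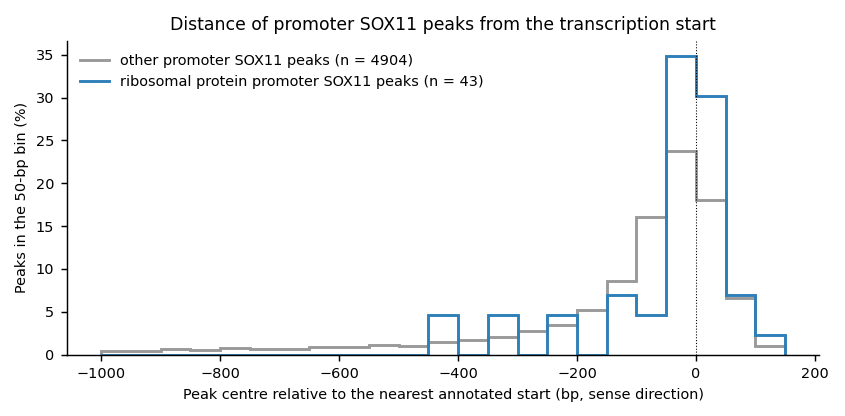
Position of the centres of SOX11 promoter peaks relative to the nearest annotated start, in bp along the direction of transcription, as the percentage of peaks in each bin of 50 bp; blue, ribosomal protein genes (n = 43), grey, other promoters (n = 4904). The blue line is higher in both bins next to the start, and 65.1% of ribosomal protein peaks fall within 50 bp of it against 41.9% of the others.

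Of the genes with a peak within 10 kb, 11 had none in the promoter. In 5 of them the peak lay in the gene body less than 1 kb from the start and in an intron, among them *Rpl17* at 118 bp, *Rpsa*, which also encodes the laminin receptor, at 138 bp, *Rpl4* at 178 bp and *Rpl38*, which is needed for patterning of the axial skeleton, at 886 bp. All but that of *Rpl38* lay just beyond the promoter limit of 100 bp downstream. In the other 6 (*Rpl13*, *Rpl14*, *Rpl28*, *Rpl36*, *Rpl3l* and *Rps24*) the nearest peak was farther, from −1857 bp at *Rpl13* to 5731 bp at *Rpl14*, and at all but *Rpl13* the start of another gene was nearer to it, such as *Polr3a* for *Rps24*.

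Both subunits were covered. SOX11 peaks lay within 10 kb of 36 of 51 genes of the large subunit, 70.6% (interval 57.0 to 81.3%), and of 17 of 33 genes of the small subunit, 51.5% (interval 35.2 to 67.5%). In promoters the counts were 27, 52.9% (interval 39.5 to 65.9%), and 15, 45.5% (interval 29.8 to 62.0%). SOX4 peaks were near 2 genes of the large subunit, 3.92% (interval 1.08 to 13.2%), and 5 of the small subunit, 15.2% (interval 6.65 to 30.9%). The intervals of the subunits overlapped in each case.

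Among the proteins of the stalk, which recruits translation factors, *Rplp2* had a promoter peak at −119 bp, whereas *Rplp0* and *Rplp1* had no SOX11 peak within 10 kb, the nearest lying at 13.8 and 29.5 kb. *Rpl5* and *Rpl11*, whose products bind and inhibit MDM2 when ribosome assembly fails, both had promoter peaks, at 30 bp and −7 bp. *Rpl11* had further peaks at 1124 bp and at 7059 bp, the latter 24 bp from the start of *Tceb3*. Both lay beyond the 3′ end of *Rpl11* and counted only through the annotated start of a noncoding transcript near that end. With starts of protein-coding transcripts alone, *Rpl11* had 1 peak within 10 kb. *Rpl24*, mutated in the Belly spot and tail mouse, had a peak at 18 bp, and *Rps27a*, which encodes a fusion with ubiquitin, at 32 bp. Mutations of *Rps19* or *Rps20* darken the skin of mice. Only *Rps19* of this pair had a peak, while the nearest SOX11 peak to *Rps20* was 30.5 kb away. *Rps6*, the substrate of the S6 kinases, had none within 10 kb and its nearest lay at 17.0 kb. *Rps19bp1* had a promoter peak at −115 bp and a second at 8258 bp that was nearer to *Atf4*, at 547 bp.

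The 27 genes of the large subunit with a SOX11 promoter peak were *Rpl10*, *Rpl10a*, *Rpl11*, *Rpl12*, *Rpl18*, *Rpl19*, *Rpl21*, *Rpl22*, *Rpl22l1*, *Rpl23*, *Rpl24*, *Rpl26*, *Rpl27*, *Rpl27a*, *Rpl29*, *Rpl30*, *Rpl32*, *Rpl34*, *Rpl35*, *Rpl35a*, *Rpl37*, *Rpl5*, *Rpl7*, *Rpl7a*, *Rpl7l1*, *Rpl9* and *Rplp2*. The 15 of the small subunit included *Rps10*, *Rps13*, *Rps15*, *Rps16*, *Rps19*, *Rps23*, *Rps25*, *Rps26*, *Rps27a*, *Rps27l*, *Rps3*, *Rps7* and *Rps9*. No SOX11 peak lay within 10 kb of the large-subunit genes *Rpl10l*, *Rpl13a*, *Rpl15*, *Rpl23a*, *Rpl3*, *Rpl31*, *Rpl36a*, *Rpl36al*, *Rpl37a*, *Rpl39*, *Rpl39l*, *Rpl6*, *Rpl8*, *Rplp0* and *Rplp1*, nor of small-subunit genes such as *Rps12*, *Rps14*, *Rps15a*, *Rps18*, *Rps2*, *Rps20*, *Rps21*, *Rps27*, *Rps28*, *Rps29*, *Rps3a*, *Rps4x*, *Rps4y2* and *Rps6*. The last group held the X-linked *Rps4x* and, among the earlier one, *Rpl36a* and *Rpl39* are X-linked too, so that *Rpl10* was the X-linked member with a peak.

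Some paralogs lacked a SOX11 promoter peak, which 23.1% of all protein-coding genes had. Expression of the paralogs was not measured here. *Rpl10l* and *Rpl39l*, copies used mainly in the testis, had their nearest SOX11 peaks 1210 and 81.3 kb away, and *Rpl3l*, used in muscle, had one at 3768 bp beside *Sepx1*. *Rps4y2* and *Rpl36al* had none within 10 kb. The paralogs *Rpl22l1*, *Rpl7l1* and *Rps27l* had promoter peaks at −33, −41 and 57 bp. Without *Rps19bp1* and these paralogs other than *Rps4y2*, which was kept, 49 of 77 genes had a peak within 10 kb, 63.6%. In the promoter 39 had one, 50.6%. Annotated pseudogenes with a ribosomal protein symbol, 107 by that rule, held no SOX11 or SOX4 peak inside them, and 3 had a SOX11 peak within 1 kb, 2.80%. Ribosomal protein pseudogenes under other symbols were not searched, and the share over other pseudogenes was not computed. Reads of a gene and of its near-identical processed copies can be hard to place, and reads were mapped with default Bowtie2 settings and dropped at low quality, at a limit that is not given in the sources used here.

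Other groups of genes that most cells use had SOX11 promoter peaks at like shares. Of 77 genes for mitochondrial ribosomal proteins, 40 had a promoter peak, 51.9% (interval 41.0 to 62.7%). For the proteasome the count was 19 of 42, 45.2% (interval 31.2 to 60.1%), for translation factors taken by the prefixes *Eif* and *Eef*, which also catch a few kinases and binding proteins, 32 of 67, 47.8% (interval 36.3 to 59.5%), and for a list of ribosome assembly factors 9 of 18, 50.0% (interval 29.0 to 71.0%). All of these intervals held the value of the ribosomal protein genes, 50.6%. SOX4 promoter peaks were at 8 mitochondrial ribosomal protein genes, 10.4% (interval 5.36 to 19.2%), at 1 proteasome gene, 2.38%, at 4 genes of translation factors, 5.97%, and at 1 of ribosome assembly, 5.56%. The ribosomal protein genes had 7.06% and all protein-coding genes 2.81%.

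Among the ribosomal proteins outside the symbol rule, *Gnb2l1*, which encodes the scaffold RACK1, had a peak at 5 bp, while the peak nearest to *Fau* was 9283 bp away beside *Tm7sf2*. *Eef1a1*, the main elongation factor, had SOX11 promoter peaks at −234 and −81 bp and a SOX4 peak at −360 bp. *Npm1*, a chaperone of ribosome assembly in the nucleolus, had a SOX11 promoter peak at −153 bp, and *Polr1b*, a subunit of RNA polymerase I, at −62 bp.

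**Figure D3:**
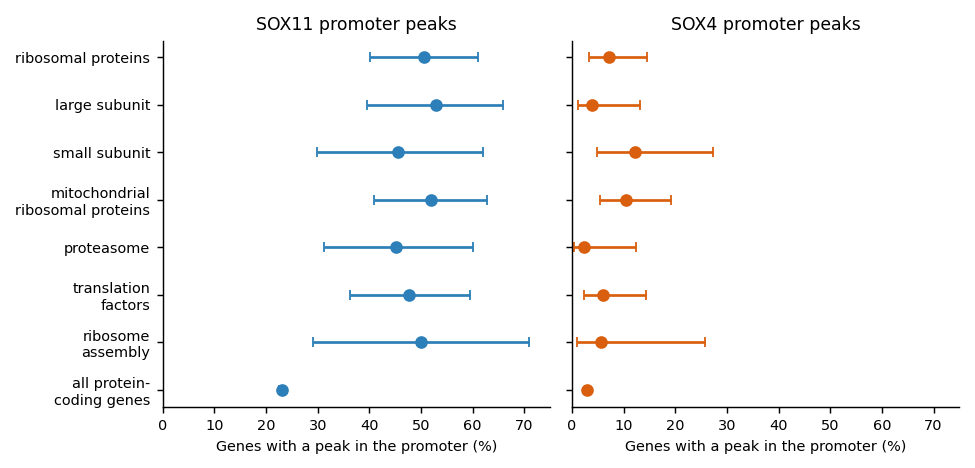
Percentage of genes with a SOX11 peak (left, blue) or SOX4 peak (right, orange) in the promoter, for ribosomal protein genes, their subunits, other gene groups and all protein-coding genes; points are shares and bars 95% Wilson intervals. For SOX11 the groups lie between 45.2% and 52.9%, and all protein-coding genes at 23.1%.

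The number of annotated starts moved with these shares. Ribosomal protein genes had a median of 4 annotated starts and all protein-coding genes 2, and the members with a promoter peak had a median of 6 where those without had 2.5. A gene with more starts has more promoter sequence in which a peak can fall. Among genes with 1 start, 8 of 23 ribosomal protein genes had a SOX11 promoter peak, 34.8% (interval 18.8 to 55.1%), and 12.4% of all such genes. With 2 to 5 starts the shares were 41.9% (interval 26.4 to 59.2%) and 26.2%, and with 6 or more 71.0% (interval 53.4 to 83.9%) and 43.2%. For SOX11 peaks within 10 kb, members and all genes had 56.5% and 29.3% with 1 start. These shares were 61.3% and 47.7% with 2 to 5 starts, and 71.0% and 65.8% with 6 or more. When only the 5′ end of the gene was taken as its start, 32 members had a promoter peak, 37.6%, beside 17.6% of all genes. The part of the number of starts in the pooled difference was not tested further.

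Ribosomal protein genes with and without a SOX11 promoter peak were close in most other measures. A gene on the opposite strand started within 1 kb, in either direction, of an annotated start of 7 of 43 genes with a peak, 16.3%, and of 7 of 42 without, 16.7%. A small nucleolar RNA lay inside 15 genes with a peak, 34.9%, and 15 without, 35.7%. The median gene length was 3243 and 3354 bp. From 250 bp upstream to 50 bp downstream of the 5′ end, the median GC content was 55.5% and 55.3%, close to the 55.1% of all protein-coding genes. The ratio of observed to expected CpG in that stretch was 0.770 with a peak and 0.924 without, and 0.535 over all genes.

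The pyrimidine tract at the start was also common to both sets. Within 50 bp of the 5′ end, 8 or more pyrimidines in a row stood on the sense strand of 60.0% of ribosomal protein genes and of 36.3% of all protein-coding genes. The share was 60.5% with a SOX11 promoter peak and 59.5% without. Pyrimidine runs that contained CTTT were found in 22.4% of members and 5.87% of all genes. Windows of 30 bases around the 5′ end are given with the longest pyrimidine run in capitals, for genes chosen for long runs. With a SOX11 promoter peak, *Rpl32* and *Rpl26* had runs of 17 and 14 bases. Without one, *Rplp1* and *Rps12* had runs of 10 and 11, and *Rpl14*, whose window is not printed, had a run of 14. Many other windows held shorter runs, such as 2 bases at *Rps9*, with a peak, and 2 at *Rps29*, without.
Rpl32, chr6:115758746-115758775, minus strand: gccgccgCCTCTTCCTTCTTCCTCggcgct
Rpl26, chr11:68715075-68715104, plus strand: gaagtcgcgtgtagTTCTCTTTCCTTTTgc
Rplp1, chr9:61762326-61762355, minus strand: gtatatgaTCTTTTCCTCagctgccgccaa
Rps12, chr10:23506996-23507025, minus strand: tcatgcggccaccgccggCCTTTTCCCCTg

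SOX4 peaks overlapped SOX11 peaks at 7 ribosomal protein genes, and all 7 SOX11 peaks were in promoters. This was 16.3% of the 43 promoter peaks (interval 8.12 to 30.0%), and the share among the 4904 other promoter peaks was 11.5% (interval 10.6 to 12.4%). None of the 23 peaks outside promoters overlapped a SOX4 peak, for which the interval reached 14.3%. Over all 66 SOX11 peaks of these genes the share was 10.6% (interval 5.23 to 20.3%), and over the whole SOX11 list it was 11.9%. Taken from the SOX4 side, all 7 SOX4 peaks near ribosomal protein genes overlapped a SOX11 peak, beside 94.5% of the whole SOX4 list.

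Of the 7 shared genes, 5 belong to the small subunit. *Rps19*, the gene most often mutated in Diamond-Blackfan anaemia, had a SOX11 peak at −230 bp, chr7:25669032-25669289, number 1218 of its list, that lay wholly within SOX4 peak number 1220. The SOX11 peak of *Rps9*, number 2010, was centred 1 bp from the start, and the SOX4 peak, number 1820, 5 bp from it. *Rps15* had SOX11 peak number 2447 at −111 bp and SOX4 peak number 1867 at −162 bp, which overlapped by 248 bp. In these 3 genes, and in *Rpl10*, the SOX11 peaks were thus among the first 2669 of the list, as many as the SOX4 list holds.

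The other small-subunit pairs overlapped less. At *Rps7*, whose product also binds MDM2, SOX11 peak number 7848 at 40 bp and SOX4 peak number 2111 at −91 bp overlapped by 168 bp. At *Rps23*, which encodes a protein of the decoding centre, SOX11 peak number 16511 at 1 bp and SOX4 peak number 2506 at 144 bp, in an intron, overlapped by 156 bp. The large subunit gave 2 pairs. The SOX11 peak of *Rpl10*, a late-joining protein needed for subunit joining, lay at −422 bp on the X chromosome, number 1635, and within SOX4 peak number 1383 at −401 bp. *Rpl30* had SOX11 peak number 6035 at 18 bp and SOX4 peak number 2032 at −37 bp, with 244 bp in common.

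Sharing went with the order of the SOX11 list, in which the earliest peaks overlapped SOX4 peaks most often. What sets that order is not given in the sources used here. Of ribosomal protein promoter peaks among the first 2669, 4 of 6 overlapped a SOX4 peak, and of other promoter peaks there 358 of 642, 55.8%. Later in the list the shares were 3 of 37, 8.11% (interval 2.80 to 21.3%), and 4.83%. The ribosomal protein promoter peaks were not gathered at either end of the list. Their median number was 10553, from 1043 to 19078, beside 9633.5 for other promoter peaks, and 14.0% of them against 13.1% of the others were among the first 2669. The 7 SOX4 peaks had numbers from 1220 to 2506 with a median of 1867, and 1 of them stood in the earlier part of that list, before its midpoint.

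The 10 genes with the earliest peaks were *Rpl7a* (number 1043), *Rps19*, *Rpl10*, *Rpl18* (1705), *Rps9*, *Rps15*, *Rpl35* (3374), *Rps25* (4167), *Rpl27* (5419) and *Rpl37* (6034). Their promoter peaks ran from −441 bp at *Rps25* to 26 bp at *Rpl35*. Of the 6 without a SOX4 peak, *Rpl7a* at −220 bp and *Rps25* were those shared with the start of a neighbouring gene, and *Rpl18*, *Rpl27* and *Rpl37* had centres at −41, 1 and −98 bp. Among the latest were the peaks of *Rpl22l1*, number 19078, and *Rps10*, number 16855.

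**Figure D4:**
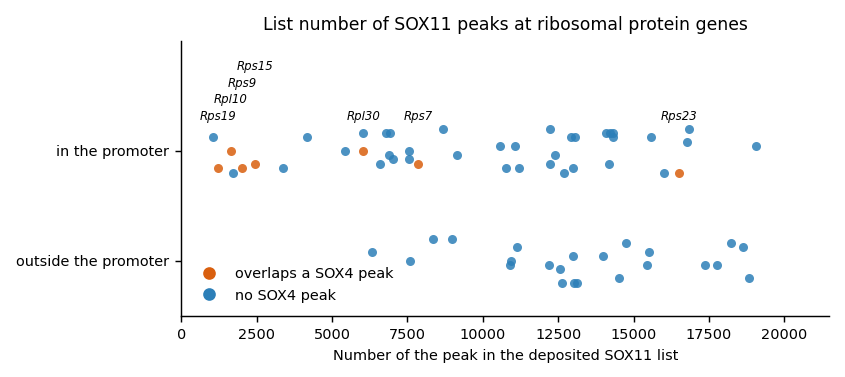
Number of each SOX11 peak near a ribosomal protein gene in the deposited list, for peaks in the promoter (upper row, n = 43) and elsewhere within 10 kb (lower row, n = 23); orange points overlap a SOX4 peak and are named, blue points do not, and the height within a row carries no value. The orange points are all in the upper row, and 4 of the 7 have numbers below 2669.

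The SOX motif was present in some promoter peaks. With 1 mismatch allowed it was found in 14 of 43 ribosomal protein promoter peaks, 32.6% (interval 20.5 to 47.5%), in 20.9% of the same windows moved 2 kb away, and in 31.9% of other promoter peaks. Windows moved 2 kb from the other promoter peaks held it in 30.0%. Over the whole SOX11 list it was in 47.3% of peaks and 29.9% of moved windows. For ribosomal protein promoter peaks, the intervals of the peaks and the moved windows overlapped. The exact core CATTGT or CTTTGT was in 10 peaks, 23.3%, in 32.6% of the moved windows and in 38.2% of other promoter peaks. A match without mismatch was found in 1 peak, that of *Rps19*, 2.33%, as against 6.79% of other promoter peaks. In its sequence above, CCTTTGTCCC stands 106 bp on the upstream side of the SOX11 peak centre. From 250 bp upstream to 50 bp downstream of the 5′ end, the motif with 1 mismatch was in 27.9% of members with a SOX11 promoter peak, 21.4% of those without and 29.2% of all protein-coding genes.

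In the 7 peaks shared with SOX4, 4 held the motif (*Rps19*, *Rpl10*, *Rps15* and *Rps9*) and 5 the exact core (the same genes and *Rpl30*). Of the 36 promoter peaks without SOX4, 10 held the motif, 27.8%, and 5 the core, 13.9%. For the motif, the intervals with and without SOX4 overlapped. For the core they did not, at 35.9 to 91.8% with SOX4 and 6.08 to 28.7% without. In windows moved 2 kb, the core was in 28.6% with SOX4 and 33.3% without. The core also went with the order of the SOX11 list, as sharing did. The earliest promoter peaks, of *Rpl7a*, *Rps19*, *Rpl10*, *Rpl18*, *Rps9* and *Rps15*, all held it, and *Rpl7a* and *Rpl18* had no SOX4 peak. Of the later shared peaks, *Rpl30* held it, and *Rps7* and *Rps23* did not. Later peaks without SOX4 held it at *Rps25*, *Rps26* and *Rps27a*. A link of the core to sharing apart from list order was not tested. The *Rpl10* match printed above lay 2 bp from the SOX11 peak centre and the *Rps9* match 4 bp, while the 3 matches of *Rps15* lay at −66, −50 and 44 bp. At *Rpl30* and *Rps7* a match with 1 mismatch lay only in the SOX4 peak, 125 and 116 bp from its centre. Neither peak of *Rps23* held a match. Among peaks without SOX4, the *Rpl7a* match was 1 bp and the *Rps26* match 15 bp from the centre. Matches of a short motif with a mismatch are frequent in any sequence, and a match is not a measured binding site.

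Other sequence features were set beside those of other SOX11 promoter peaks. The median GC content was 61.6% in ribosomal protein promoter peaks, 64.7% in other promoter peaks and 51.6% in all SOX11 peaks. The GC box GGGCGG, to which SP1 family factors bind, was in 25 of 43 ribosomal protein peaks, 58.1%, in 4.65% of the moved windows and in 65.2% of other promoter peaks. AP-1 motifs with 1 mismatch were in 3 peaks, 6.98% (interval 2.40 to 18.6%), and in 14.5% of other promoter peaks, and the TEAD motif in 1, 2.33%, and in 7.40% of the others. TATAAA was in 4.65% and 3.85%, and CCAAT in 16.3% and 27.3%. The NRF1 site GCGCATGC was in 4.65% and 3.77%.

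The ETS site CCGGAAG was in 12 of the 43 peaks, 27.9% (interval 16.7 to 42.7%), and in 18.3% of other promoter peaks, and the longer form ACCGGAAG, which contains it, in 6, 14.0%, and in 5.02%. The YY1 site AAGATGGC was in 7, 16.3% (interval 8.12 to 30.0%), and in 5.73%. Both were searched on either strand. In the stretch around the 5′ end, which does not depend on peaks, CCGGAAG was in 28.2% of ribosomal protein genes and 10.8% of all genes, and its share was 25.6% with a SOX11 promoter peak and 31.0% without. AAGATGGC was in 7.06% of members and 3.31% of all genes, at 6.98% with a peak and 7.14% without. Of the 43 genes with a SOX11 promoter peak, 32 had one in the promoter of the 5′ end itself. At *Rpl30* and *Rpl21* the peak centre lay 399 and 250 bp from that end. The stretch can therefore miss sites inside peaks at other starts, which also limits the other comparisons made around the 5′ end. The next windows show ACCGGAAG at *Rpl26* and *Rps7*, at −10 and −11 bp from the start, and AAGATGGC at *Rpl24* and *Rps3*, at 10 and 13 bp, and both at *Rpl30*, in capitals.
Rpl26 ETS, chr11:68715060-68715089, plus strand: caacttacagaACCGGAAGtcgcgtgtagt
Rps7 ETS, chr12:29320814-29320843, plus strand: ggtgggtggaaACCGGAAGctcttctgaaa
Rpl30 ETS, chr15:34373017-34373046, plus strand: aggattgtgggACCGGAAGcggaagagaag
Rpl24 YY1, chr16:55966501-55966530, minus strand: ctgccggggtaAAGATGGCgaagagaaaga
Rps3 YY1, chr7:106632116-106632145, minus strand: cgcgcggctgcAAGATGGCggtgcagattt
Rpl30 YY1, chr15:34372943-34372972, plus strand: caccagccgccAAGATGGCcggggagcgag

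**Figure D5:**
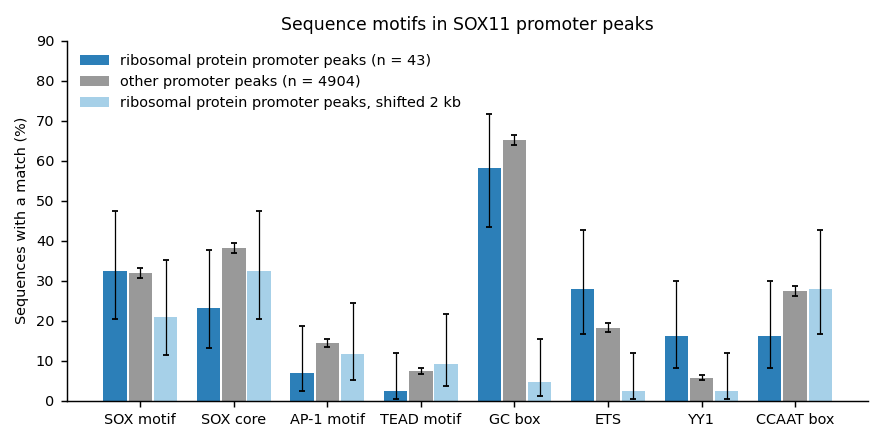
Percentage of sequences with each motif in ribosomal protein promoter SOX11 peaks (dark blue, n = 43), in other promoter SOX11 peaks (grey, n = 4904) and in the ribosomal protein peak windows moved 2 kb (light blue); bars are shares and lines 95% Wilson intervals. The SOX motif is at 32.6% and 31.9% in the 2 sets of peaks, the GC box at 58.1% and 65.2%, and the YY1 site at 16.3% and 5.73%.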

How the data were processed

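SOX11-FLAG and SOX4-FLAG peaks were read from 2 deposited lists, whose values, the start and end coordinates of each peak, are neither counts nor signal. Per the labels and the methods of the study, the authors used Bowtie2 for mapping to mm9, a filter that dropped non-nuclear and low-quality reads, Picard against duplicates, HOMER as the peak caller and bedtools for subtracting blacklisted regions; versions and thresholds are not given in the sources used here. Members and gene lists were chosen with earlier results of these data known. Genes and starts came from GENCODE for mm9, all annotated transcripts of protein-coding genes being used. A peak was placed by its centre, and peaks overlapped when they shared at least 1 bp. Motifs were searched on both strands with Python 3.11.15, numpy 2.4.6, pysam 0.24.0 and samtools 1.23.1. Overlap, nearest start, promoter rule and motif search were tested on simulated data. Genes were named by rule: those with a SOX4 peak, the 10 earliest SOX11 peaks, 3 or more peaks, and 13 fixed genes; others named in the text were chosen after their values were seen. Some genes counted above are not reported by name here. The effects of 29 alternatives, and 1 chosen after seeing the data, are given at the end. Figures were drawn with matplotlib 3.10.9.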

Additional observations from a re-analysis of the deposited data

How the results depend on the processing

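No paired analysis was possible because the replicates were pooled into 1 list per factor, and no replicate could be left out. Of 29 alternatives, 22 left a share of peaks within its counting interval, or a count of genes or a median within 1.5 times its value. The other 7 moved their result, and the cause was not tested unless named. With only the first 2669 SOX11 peaks, 6 members had a peak, 7.06% beside 7.35% of all genes, since fewer peaks were used. Within 25 kb, 13 members had a SOX4 peak, 15.3% (interval 9.16 to 24.4%) beside 12.2% of all genes. The share of promoter peaks with the SOX motif fell to 2.33% with no mismatch and 18.6% within 50 bp of the centre, and the AP-1 share to 2.33% with the exact core and 2.33% within 50 bp, in shorter or stricter searches. The median distance of SOX11 peaks was −1 bp from the nearest annotated start and 41 bp with the 5′ end only. In 1 alternative chosen after seeing the data, the share of promoter peaks within 50 bp of the start fell to 39.5% with the 5′ end only. The lists have no depth or score, so weaker sites below the authors' threshold cannot be seen.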
